A study of Mus musculus with 22 samples.

Results

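The annexin genes of the mouse spinal cord were followed through normal aging and through SOD1G93A disease, a mouse model of amyotrophic lateral sclerosis (ALS). The family was taken as 8 genes chosen by symbol, Anxa1, Anxa2, Anxa3, Anxa4, Anxa5, Anxa6, Anxa7 and Anxa11, of 21995 genes in the table. All 8 were present in the table, and 7 of the 8 held enough reads to be tested in each comparison. The exception was Anxa1, which is described by its counts.

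Whole spinal cord was sequenced from 22 mice on a C57BL/6 background, with 1 RNA-seq library per mouse. The aging comparison set 8 old wild-type males of 18–24 months against 8 young wild-type males of 3–4 months, with libraries made by the Roche KAPA HyperPrep kit. The ALS comparison set 3 symptomatic SOD1G93A mice of 5–6 months, which carry a mutant human SOD1 transgene in addition to their own Sod1, against 3 wild-type controls of the same age. These libraries were made with the Illumina TruSeq kit and came from mice of both sexes, whose sex is not given per library. Because kit and experiment coincide, levels are compared only within an experiment unless stated.

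Annexins are soluble proteins that bind membranes rich in acidic phospholipids, such as phosphatidylserine, when calcium rises. Each is built from repeats of a common fold in which calcium is held by a loop, and each has its own N-terminal tail, which binds partners such as S100 proteins. They are known for organising membrane domains, for sealing torn plasma membranes, and, in the case of annexin A1, for dampening inflammation.

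The feature that makes these genes a family is visible in their coding sequences. The calcium-binding loop has the pattern glycine, any residue, glycine, threonine, which is encoded in frame by the codons GGN, NNN, GGN and ACN. The first such match in each main GENCODE transcript is printed below as the coding strand from 5′ to 3′, with the matching 12 bases in capitals and 9 bases on either side, so that the shared letters and the differences among the 8 members can be read.
Anxa1: gccatgaagGGACTTGGAACAgatgaagac
Anxa2: tccatgaagGGCCTGGGGACTgacgaggac
Anxa3: gcgatcagaGGACTTGGGACTgacgagaaa
Anxa4: gccatgaaaGGCCTCGGTACTgatgaagat
Anxa5: gccatgaaaGGCTTGGGTACCgatgaggac
Anxa6: gccatctcgGGCGTTGGCACAgatgagaag
Anxa7: gcaatgaaaGGGTTTGGGACAgacgagcaa
Anxa11: gctatgaagGGCTTTGGAACGgatgagcag
The match begins at codon 28 in Anxa5, 29 in Anxa4 and 33 in Anxa3, which have short N-terminal tails. In Anxa7 and Anxa11, which have long tails, it begins at codons 175 and 213. In Anxa1, Anxa2 and Anxa6 it begins at codons 129, 120 and 107. The first matches need not lie in the same repeat, so the printed stretches are not an alignment. Anxa1 and Anxa2 hold 2 matches each, Anxa3, Anxa4, Anxa5, Anxa7 and Anxa11 hold 3 each, and Anxa6, which carries the annexin core in duplicate, holds 5. The coding sequence of Anxa6 is 2019 bases long, against 957 to 1509 bases in the others.

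The genes are scattered over the genome. In GENCODE M21 on GRCm38, Anxa1 lies on the minus strand at chr19:20373428-20390944, Anxa2 on the plus strand at chr9:69453620-69491795, Anxa3 on the plus strand at chr5:96793339-96845966 and Anxa4 on the minus strand at chr6:86736840-86793584. Anxa5 lies on the minus strand at chr3:36448923-36475894, Anxa6 on the minus strand at chr11:54979108-55033445, Anxa7 on the minus strand at chr14:20455260-20480133 and Anxa11 on the plus strand at chr14:25842156-25886804. Exons of 4 members overlap those of a noncoding gene. These pairs are Anxa2 with Gm16144, Anxa4 with Gm44036 and Anxa11 with Anxa11os, all on opposite strands, and Anxa3 with Gm42603 on the same strand. Whether strand was used in counting is not given in the sources used here, so reads of such a pair may not be told apart.

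Upstream sequence was read for the members from RefSeq's promoter table on GRCm38.p6, which held 6 of the 8 and no entry for Anxa3 or Anxa6. The sequences of Anxa2 and Anxa4 are shown because, of the 5 among these 6 that could be tested, they changed most in both comparisons. The Anxa2 sequence is chr9:69453433-69453619 on the plus strand, ending at the base before the annotated gene, and the Anxa4 sequence is chr6:86793585-86793834 on the minus strand. Capitals mark GGGCGG (a GC box) and TGANTCA (the AP-1 motif), searched on both strands.
Anxa2 upstream: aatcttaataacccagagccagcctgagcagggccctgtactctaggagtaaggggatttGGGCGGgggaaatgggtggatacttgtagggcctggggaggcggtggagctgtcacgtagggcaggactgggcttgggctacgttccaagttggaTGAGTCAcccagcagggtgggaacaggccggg
Anxa4 upstream: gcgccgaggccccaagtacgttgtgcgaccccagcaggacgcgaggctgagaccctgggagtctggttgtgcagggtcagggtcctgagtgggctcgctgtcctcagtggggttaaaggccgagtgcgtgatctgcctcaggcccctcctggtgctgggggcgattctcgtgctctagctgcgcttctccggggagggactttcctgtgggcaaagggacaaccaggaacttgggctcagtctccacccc
Over the 250 bases before the start site in the table, Anxa2 held 3 GC boxes, 1 AP-1 motif and 1 TATAAA, the last and the other GC boxes falling in the part not printed. Anxa4 and Anxa5 held no match to any of the motifs searched, which also included CCAAT and GAGGAAG. Anxa11 held 3 GC boxes, Anxa7 held 1 GC box and Anxa1 held 1 TATAAA. Among 32536 promoters of the same length, 33.0% held GGGCGG, 33.8% held CCAAT, 12.3% held TATAAA, 6.73% held TGANTCA and 10.7% held GAGGAAG. The letters are a description of the window and not evidence of binding.

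Values are given as CPM, counts relative to library sizes scaled by the trimmed mean of M-values (TMM). Library totals ran from 5078092 to 9358055 counts in young, from 5664869 to 9145600 in old, from 10693060 to 13219797 in control and from 9675610 to 11872431 in SOD1G93A mice. Over the 22 libraries, 3 counts corresponded to 0.231 to 0.582 CPM. Spinal cord Hox genes were present in every library, with a summed level of 335 to 650 CPM over the 7 chosen. The mouse Sod1 row stood at 296 to 335 CPM in SOD1G93A and at 156 to 168 CPM in control libraries, and whether reads of the human transgene were counted there was not tested. In 1 old library, 13.2% of the counts fell on mitochondrial genes, against 5.24% to 9.18% in the other old libraries. That library also had the lowest old level of Anxa2, Anxa3, Anxa4 and Anxa5, and the aging fold changes of the tested members are given with and without it.

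With age, annexin mRNA rose. Of the 7 members tested, 6 were higher in old mice (Anxa2, Anxa3, Anxa4, Anxa5, Anxa7 and Anxa11) and none was lower. Anxa3 rose most, to 3.51 times its young level, and Anxa6 did not pass the test. A gene was called when edgeR's adjusted p, corrected over all genes tested, was under 0.05. By that rule 13.5% of all genes tested were higher and 12.9% were lower. Anxa3 was also past a log2 fold change of 1, which 2.18% of genes were. The median log2 fold change of the 7 was 0.33, and that of all genes tested was -0.0027. In whole tissue, a change in the number of cells that make an mRNA and a change in the amount per cell cannot be told apart.

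**Figure D1:**
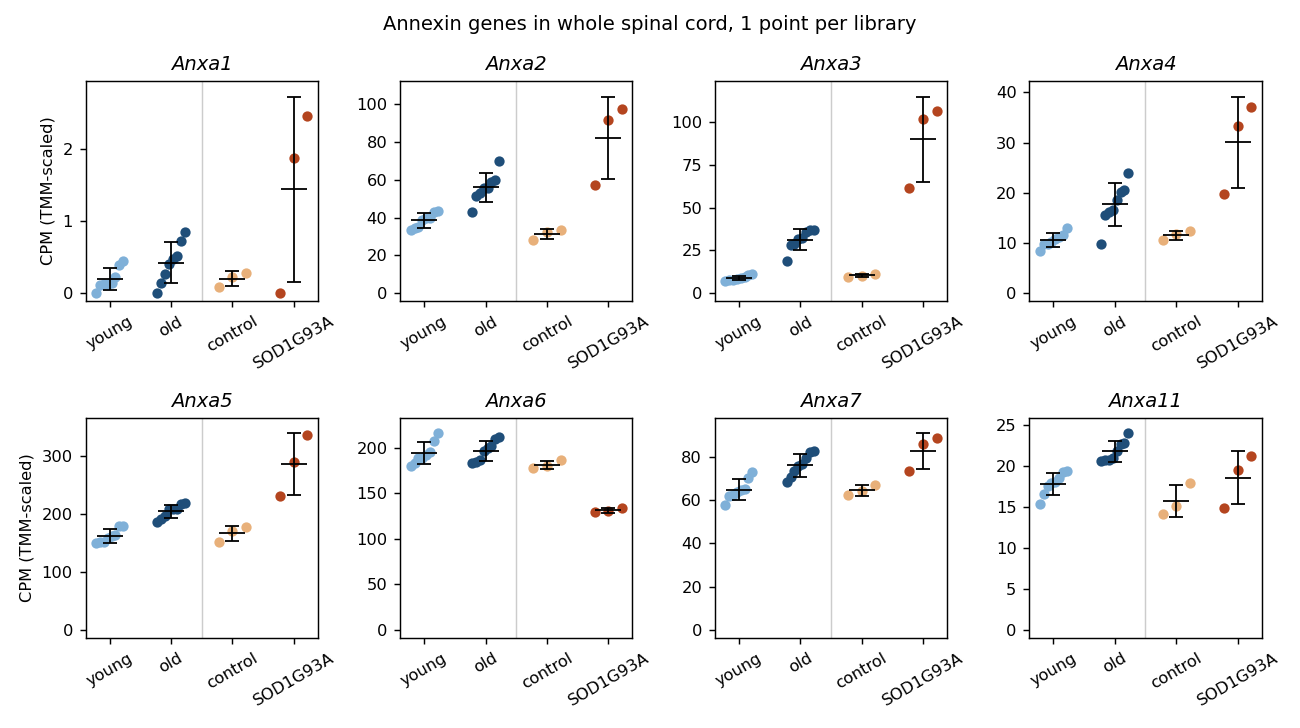
CPM of each annexin gene by group, with 1 point per library and the mean ± SD in black. Anxa2, Anxa3, Anxa4 and Anxa5 step up from young to old and more from control to SOD1G93A, Anxa6 is lower in all 3 SOD1G93A libraries (129 to 134 CPM) than in the controls (178 to 186 CPM), and Anxa1 is at most 2.46 CPM.

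Anxa3, once called lipocortin III, is a short-tailed annexin. It ranged from 7.19 to 11.02 CPM in young mice, with a median of 8.47, and from 18.7 to 37.0 CPM in old mice, with a median of 32.0. Every old library was above every young library, and the lowest old value came from the library rich in mitochondrial counts. Its log2 fold change was 1.81 ± 0.12 (SE, n = 8 and 8, edgeR adjusted p = 1.14e-10), and it was 1.89 without that library (edgeR adjusted p = 9.52e-14). Across genes tested, old and young libraries were separated in this way for 3.66%, and among the members for 3, which were Anxa3, Anxa5 and Anxa11.

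Anxa2, which pairs with S100A10 and gathers plasminogen and its activator at the cell surface, ranged from 33.6 to 43.5 CPM in young mice (median 39.3) and from 42.9 to 70.0 CPM in old mice (median 55.7). The groups overlapped through 1 old library, the one rich in mitochondrial counts, and the other 7 old libraries lay above all young ones. The log2 fold change was 0.54 ± 0.08 (SE, n = 8 and 8, edgeR adjusted p = 1.68e-05). Without that library it was 0.58 (edgeR adjusted p = 5.28e-07).

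Anxa4, which assembles on membranes and takes part in their repair, ranged from 8.42 to 12.98 CPM in young mice (median 10.5) and from 9.72 to 24.0 CPM in old mice (median 17.5). Again the overlap was due to the same old library, and the next lowest old value, 15.6 CPM, was above all young values. Anxa4 had a log2 fold change of 0.74 ± 0.13 (SE, n = 8 and 8, edgeR adjusted p = 0.000177), and 0.83 without that library (edgeR adjusted p = 1.25e-06).

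Anxa5, whose protein binds exposed phosphatidylserine and is used as a probe of dying cells, ranged from 150.1 to 180.4 CPM in young mice (median 160.3) and from 187 to 219 CPM in old mice (median 209). The 2 groups did not overlap, although the change was modest. The log2 fold change was 0.33 ± 0.05 (SE, n = 8 and 8, edgeR adjusted p = 1.54e-05), and 0.35 without the library rich in mitochondrial counts (edgeR adjusted p = 4.04e-06).

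Both long-tailed members rose by small amounts. Anxa11, which binds the penta-EF-hand protein ALG-2 and tethers RNA granules to lysosomes, and whose human gene is mutated in some families with ALS, ranged from 15.3 to 19.3 CPM in young mice (median 17.9) and from 20.6 to 23.9 CPM in old mice (median 21.3). The groups were separate, with a log2 fold change of 0.29 ± 0.06 (SE, n = 8 and 8, edgeR adjusted p = 0.00178). Anxa7, also called synexin, ranged from 57.5 to 72.8 CPM in young mice (median 64.2) and from 68.2 to 82.4 CPM in old mice (median 76.0). The Anxa7 ranges overlapped, and its log2 fold change was 0.23 ± 0.05 (SE, n = 8 and 8, edgeR adjusted p = 0.00226). Without the library rich in mitochondrial counts the log2 fold changes were 0.30 for Anxa11 and 0.23 for Anxa7 (edgeR adjusted p = 0.00142 and 0.00212).

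Anxa6, which acts at endosomes and in cholesterol transport, ranged from 180.1 to 216 CPM in young mice (median 190.3) and from 183 to 211 CPM in old mice (median 197). The ranges lay almost on top of each other. The log2 fold change was 0.02 with a 95% confidence interval from -0.07 to 0.11 (n = 8 and 8, edgeR adjusted p = 0.788), so a change of the size seen in Anxa7 lies outside the interval. Without the same old library it was 0.03 (edgeR adjusted p = 0.614).

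In SOD1G93A mice most of these genes were again higher, and Anxa6 fell. Of the 7 members tested, 5 were higher (Anxa2, Anxa3, Anxa4, Anxa5 and Anxa7) and 1 was lower (Anxa6). Among all genes tested, 18.4% were called higher and 15.5% lower. Anxa2, Anxa3 and Anxa4 were past a log2 fold change of 1, as were 8.5% of genes in the higher direction. The median log2 fold change of the 7 was 0.78, and that of all genes tested was 0.0031. All 5 higher members had every SOD1G93A library above every control library, as did 25.7% of genes, and Anxa6 had every one below, as did 24.7%.

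Anxa3 stood at 9.68, 10.3 and 11.5 CPM in the control mice and at 61.4, 102 and 106 CPM in the SOD1G93A mice. All diseased mice were far above all controls. This gave a log2 fold change of 3.11 ± 0.21 (SE, n = 3 and 3, edgeR adjusted p = 8.14e-05), a factor of 8.61. It stayed between 2.97 and 3.32 when any 1 library was left out.

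Anxa2 stood at 28.1, 32.2 and 33.6 CPM in control and at 57.3, 91.6 and 97.4 CPM in SOD1G93A mice. The groups were well apart, with a log2 fold change of 1.39 ± 0.19 (SE, n = 3 and 3, edgeR adjusted p = 0.00116). Anxa4 stood at 10.6, 11.8 and 12.3 CPM in control and at 19.8, 33.2 and 37.1 CPM in SOD1G93A mice. Its log2 fold change was nearly the same, at 1.38 ± 0.22 (SE, n = 3 and 3, edgeR adjusted p = 0.00252). Anxa5 stood at 153, 172 and 178 CPM in control and at 231, 291 and 337 CPM in SOD1G93A mice. Its groups were also separate, with a log2 fold change of 0.78 ± 0.14 (SE, n = 3 and 3, edgeR adjusted p = 0.00426).

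Anxa7 stood at 62.1, 64.1 and 66.9 CPM in control and at 73.3, 85.7 and 88.6 CPM in SOD1G93A mice. The groups were separate by a narrow margin, and the log2 fold change was 0.36 ± 0.09 (SE, n = 3 and 3, edgeR adjusted p = 0.0184). This call was lost without either of the 2 lower control libraries or either of the 2 higher SOD1G93A libraries, with edgeR adjusted p-values of 0.0553 to 0.0743 in these 4 cases. Anxa11 stood at 14.1, 15.1 and 17.9 CPM in control and at 14.9, 19.5 and 21.1 CPM in SOD1G93A mice. Its groups overlapped and its log2 fold change of 0.24, with a 95% confidence interval from -0.13 to 0.60, did not pass the test (edgeR adjusted p = 0.29). The interval includes the change of 0.29 measured with age.

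Anxa6 was the member that fell. It stood at 178, 179.7 and 186 CPM in control and at 129, 131 and 134 CPM in SOD1G93A mice. Both groups were tight and far apart. The log2 fold change was -0.47 ± 0.08 (SE, n = 3 and 3, edgeR adjusted p = 0.00324), which is 0.724 times the control level, and the highest edgeR adjusted p with any 1 library left out was 0.0222.

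The same SOD1G93A mouse had the lowest level of each of the 5 higher members and the highest level of Anxa6. Its summed microglia markers (1053 CPM) and astrocyte markers (9769 CPM) were also the lowest of the 3 diseased mice, and its summed neuron markers (3800 CPM) the highest. Leaving this mouse out raised the number of annexin genes called from 6 to 7. The seventh was Anxa1, which then held enough reads to be tested through the other SOD1G93A mice alone.

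**Figure D2:**
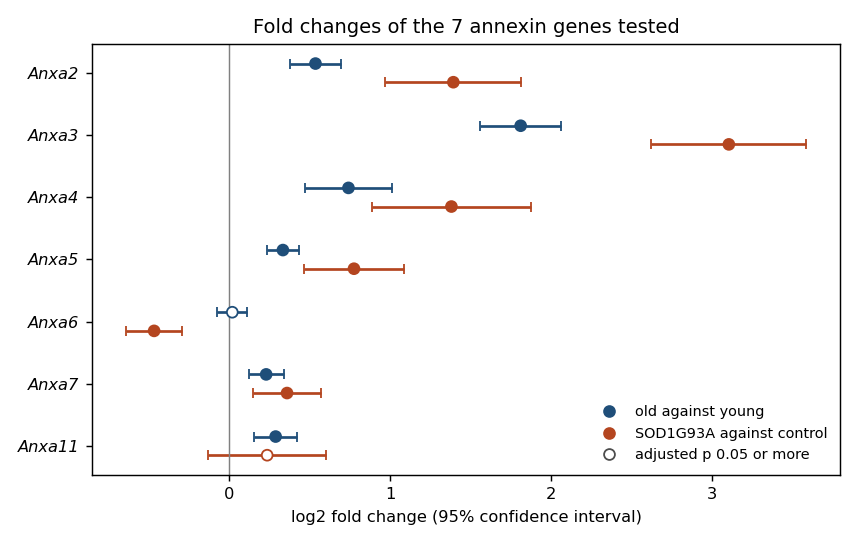
Log2 fold changes of the 7 annexin genes tested, with 95% confidence intervals from the edgeR fit, for old against young (8 and 8 mice) and for SOD1G93A against control (3 and 3 mice). The intervals of Anxa3 do not meet (up to 2.06 with age, from 2.62 in disease), and Anxa6 is near 0 with age and below 0 in disease.

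Whether a member changed by a different amount in disease than with age was tested as the SOD1G93A change minus the aging change in one edgeR fit of the 22 libraries. Anxa3 changed more in disease, by 1.27 ± 0.24 on the log2 scale (SE, edgeR adjusted p = 0.000395). Anxa2 did so by 0.83 ± 0.18 (SE, edgeR adjusted p = 0.00128) and Anxa5 by 0.41 ± 0.12 (SE, edgeR adjusted p = 0.0108). Anxa6 moved the other way, with a difference of -0.51 ± 0.08 (SE, edgeR adjusted p = 0.000105). Of all genes tested, 11.6% had a more positive and 14.2% a more negative change in disease.

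The difference for Anxa5 was 0.29 without the SOD1G93A mouse with its highest level (edgeR adjusted p = 0.0811) and 0.35 without the control with its lowest (edgeR adjusted p = 0.0512). For Anxa4 the difference was 0.61, with a 95% confidence interval from 0.09 to 1.14 and an edgeR adjusted p of 0.0802. It passed the test without the SOD1G93A mouse with the lowest Anxa4, at 0.82 (edgeR adjusted p = 0.0075). Intervals for Anxa7, from -0.10 to 0.31, and for Anxa11, from -0.37 to 0.21, included 0 (edgeR adjusted p = 0.491 and 0.724). Kit, age, the mix of sexes and experiment differ together in this test and cannot be told apart.

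Anxa1, the glucocorticoid-induced annexin that acts through formyl peptide receptors, was near the limit of detection. It had 0 to 4 counts in each young library and 0 to 8 in each old library, or 13 against 26 counts in all. The ratio of old to young was 2.12, with a 95% exact interval of 1.05 to 4.49 that covers counting error only. Tests over the mice did not pass with age, at an adjusted p of 0.201 with edgeR without the filter on low counts and 0.254 with DESeq2. Control mice had 1, 3 and 3 counts, and SOD1G93A mice had 0, 21 and 29. The diseased mouse with 0 counts, which allows up to 0.302 CPM, was the one with the lowest glial markers, so the groups overlapped. The ratio of SOD1G93A to control was 7.69, with a 95% exact interval of 3.47 to 20.1 for counting error. Anxa1 did not pass the filter on low counts. Without the filter, edgeR gave it a log2 fold change of 2.82 in disease (adjusted p = 0.0617) and DESeq2 gave 2.86 (adjusted p = 0.0497). Without the mouse at 0 counts the log2 fold change was 3.39, in a fit where Anxa1 passed the filter through the other SOD1G93A mice alone. Without each of the control mice in turn edgeR gave 2.48 to 3.12 and did not pass (adjusted p = 0.129 to 0.184), and without either of the other SOD1G93A mice Anxa1 again missed the filter.

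The other annexin genes of the mouse contributed little. Anxa13 had no count in any library, Anxa8 had at most 3 counts in a library and Anxa10 at most 4. Anxa9 had mean levels of 1.26 CPM in young, 0.871 in old, 1.22 in control and 2.16 in SOD1G93A mice. In disease it was tested, and its log2 fold change of 0.83 did not pass (edgeR adjusted p = 0.103).

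To compare levels between the genes, the deposited values per transcript length (FPKM) were used. In young mice the order was Anxa5 (122 ± 9.74 FPKM, SD, n = 8), Anxa6 (74.2 ± 5.76), Anxa2 (26.0 ± 3.11), Anxa7 (21.4 ± 1.60), Anxa3 (7.24 ± 1.72), Anxa11 (7.001 ± 0.572), Anxa4 (5.47 ± 0.489) and Anxa1 (0.35 ± 0.382). The ranges over libraries overlapped between Anxa2 and Anxa7, between Anxa3 and Anxa11, and between Anxa11 and Anxa4, and the other neighbours were separate. In old mice Anxa3 reached 25.1 ± 5.81 FPKM, where its range overlapped that of Anxa7 at 25.1 ± 2.12 FPKM. In SOD1G93A mice Anxa3 reached 72.7 ± 20.03 FPKM (SD, n = 3) and was second to Anxa5 at 219 ± 43.0 FPKM. Its range there overlapped that of Anxa2 at 57.6 ± 12.8 FPKM, and Anxa6 stood at 51.6 ± 1.56 FPKM. When CPM was divided by exon length instead, Anxa6 took the second place in SOD1G93A mice, Anxa3 the third and Anxa2 the fourth. The rank also moved for 4 of the 8 members in young, 4 in control and 2 in old mice, so the order depends on the measure of length.

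The make-up of annexin mRNA differed between groups. The summed level of the 8 genes was 264 ± 17.9 FPKM in young and 335 ± 40.3 FPKM in old mice (SD, n = 8), and 254 ± 9.69 FPKM in control and 453 ± 81.1 FPKM in SOD1G93A mice (SD, n = 3). Anxa5 made up 46.2% in young, 45.6% in old, 48.3% in control and 48.3% in SOD1G93A mice. Anxa3 made up 2.74% ± 0.589 in young and 7.38% ± 1.12 in old mice (SD, n = 8). In disease it went from 3.30% ± 0.817 in control to 15.9% ± 2.03 in SOD1G93A mice (SD, n = 3). Over the same steps Anxa6 went from 28.1% to 22.5% with age and from 27.1% to 11.7% in disease. The ranges of both shares were separate between the groups of each comparison.

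**Figure D3:**
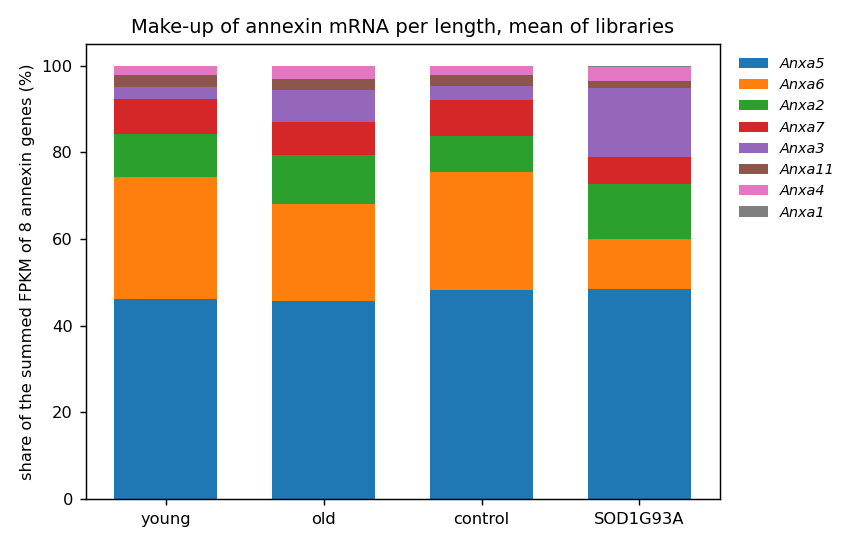
Share of each annexin gene in the summed FPKM of the 8 genes, as the mean over libraries of each group (8, 8, 3 and 3 mice). The Anxa3 band widens from 2.74% in young to 7.38% in old and from 3.30% in control to 15.9% in SOD1G93A mice, and the Anxa6 band narrows.

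Genes of the S100 proteins that bind annexin tails also rose. S100a10, the partner of annexin A2, went from 29.8 ± 2.996 to 41.9 ± 4.93 CPM with age (SD, n = 8) and from 26.2 ± 3.80 to 79.0 ± 18.2 CPM in disease (SD, n = 3). S100a11, a partner of annexins A1 and A2, and S100a6, which binds annexin A11 among others, rose more steeply. With age the log2 fold changes were 0.50 for S100a10, 1.62 for S100a11 and 2.11 for S100a6 (edgeR adjusted p = 3.31e-05, 1.49e-10 and 1.20e-08). In disease they were 1.59, 2.94 and 3.57 (edgeR adjusted p = 0.000497, 0.000241 and 0.000158). These 3 were above the level of the filter on low counts in every library, and their median log2 fold change was 1.62 with age and 2.94 in disease, where the medians of all genes were -0.0027 and 0.0031. S100a4 is given by its levels, since every young and every control library was below the level of the filter. It stood at 0 to 1.13 CPM in young and 1.39 to 8.75 CPM in old mice, and at 0.589 to 0.845 CPM in control and 14.1 to 26.1 CPM in SOD1G93A mice. The groups did not overlap in either comparison. With age it missed the filter with all 16 libraries. Where it passed the filter with 1 library left out, it did so through the old mice alone.

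Both activators of plasminogen, which annexin A2 and S100A10 bring to the cell surface, rose as well. Plat, tissue plasminogen activator, rose from 48.7 to 77.8 CPM with age and from 43.8 to 145 CPM in disease (log2 fold changes of 0.68 and 1.73, edgeR adjusted p = 2.06e-05 and 0.000445). Plau, urokinase, rose by 2.42 with age and 4.33 in disease on the log2 scale (edgeR adjusted p = 5.62e-08 and 8.14e-05). Plaur, the urokinase receptor, passed the filter only in disease, and through the SOD1G93A mice, so it is given by its levels. It was at 0.388 to 0.911 CPM in young and 0.617 to 3.20 CPM in old mice, which overlapped, and at 0.0949 to 0.999 CPM in control and 5.74 to 10.2 CPM in SOD1G93A mice, which did not. Plg, plasminogen itself, had at most 7 counts in any library.

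Other partners could not be tested, or formed a list of 4 genes, too few for their calls to be set apart from all genes. Of all genes tested, 13.5% were higher with age and 18.4% in disease. The formyl peptide receptors, through which annexin A1 acts, were too low to test, with at most 10 counts in a library and with Fpr3, Fpr-rs3 and Fpr-rs4 at 0 throughout. Of the penta-EF-hand proteins that bind annexins A7 and A11, sorcin (Sri) rose by 0.18 on the log2 scale with age (edgeR adjusted p = 0.021), a call that was lost without 1 of the young mice. The remaining Pdcd6 (ALG-2), Gca and Pef1 did not pass with age, and none of the 4 passed in disease (1 did without 1 of the control mice or without the SOD1G93A mouse with the lowest microglia marker level), where log2 fold changes ran from -0.03 for Pef1 to 0.28 for Pdcd6.

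Among 11 genes of membrane repair and its scaffolds, 7 were higher with age and none lower, while in disease 6 were higher and 1 was lower. Among all genes tested 13.5% were higher and 12.9% lower with age, and 18.4% and 15.5% in disease. Myof, which encodes the ferlin myoferlin, rose by 1.65 with age and 2.76 in disease on the log2 scale (edgeR adjusted p = 7.29e-07 and 0.000614). Ahnak, a large scaffold that binds the complex of annexin A2 and S100A10, rose by 0.70 and 1.35 (edgeR adjusted p = 0.000138 and 0.00305). The caveolar coat gene Cav1 rose by 0.50 in both (edgeR adjusted p = 2.17e-06 and 0.0145), and the calpain subunit Capns1 by 0.31 and 0.60 (edgeR adjusted p = 1.61e-05 and 0.0154). Ahnak2 was the gene that fell in disease, by 0.65 (edgeR adjusted p = 0.0161). The disease count was fragile. Higher calls fell from 6 to 3, 3 and 2 without each of the control mice in turn, and to 3 without the SOD1G93A mouse with the middle microglia marker level, and they stayed at 6 without either of the other two SOD1G93A mice. The lower call was lost without 2 of the control mice or that same SOD1G93A mouse. With age, 7 were higher whichever mouse was left out. The median log2 fold change of the list was 0.21 with age and 0.50 in disease, against -0.0027 and 0.0031 for all genes.

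Of 11 genes listed for a link to phosphatidylserine exposure, 10 were tested. Plscr2, Plscr3 and Plscr4, of the family named phospholipid scramblases, and the channel and scramblase gene Ano6 were the 4 called higher in both comparisons. Among all genes tested, 13.5% were higher with age and 18.4% in disease. The median log2 fold change of the 10 was 0.24 with age and 0.41 in disease, against -0.0027 and 0.0031 for all genes. Plscr2 rose from 3.63 to 6.32 CPM with age and from 5.44 to 29.6 CPM in disease (log2 fold changes of 0.81 and 2.45, edgeR adjusted p = 0.00209 and 0.000228), and Ano6 rose by 0.37 and 1.06 (edgeR adjusted p = 8.61e-06 and 0.000768). No gene of this list fell with age, where 12.9% of all genes tested did, and 2 fell in disease, where 15.5% did. Tmem30a, which encodes the subunit of flippases that return phosphatidylserine to the inner leaflet, fell by 0.38 on the log2 scale (edgeR adjusted p = 0.0296). Both calls were lost when any 1 mouse of the disease comparison was left out, except the SOD1G93A mouse with the lowest microglia marker level.

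The copines, another family of calcium-dependent phospholipid-binding proteins, were called in both directions in disease. With age 1 of 9 was higher (Cpne3) and 1 lower (Cpne7), near the shares over all genes of 13.5% and 12.9%. In disease Cpne1, Cpne2, Cpne3 and Cpne8 were higher, by 0.54 to 0.79 on the log2 scale, and Cpne4, Cpne6 and Cpne9 were lower, by 0.48 to 0.70, where 18.4% of all genes were higher and 15.5% lower. The median log2 fold change of the family was 0.12 with age and 0.06 in disease, with the lowest edgeR adjusted p, 0.00136, in Cpne6. The 3 lower calls in disease fell to 1 or 2 when any 1 mouse was left out, except the SOD1G93A mouse with the lowest microglia marker level. With a mouse left out, calls with age ran from 0 to 1 higher and from 0 to 2 lower.

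**Figure D4:**
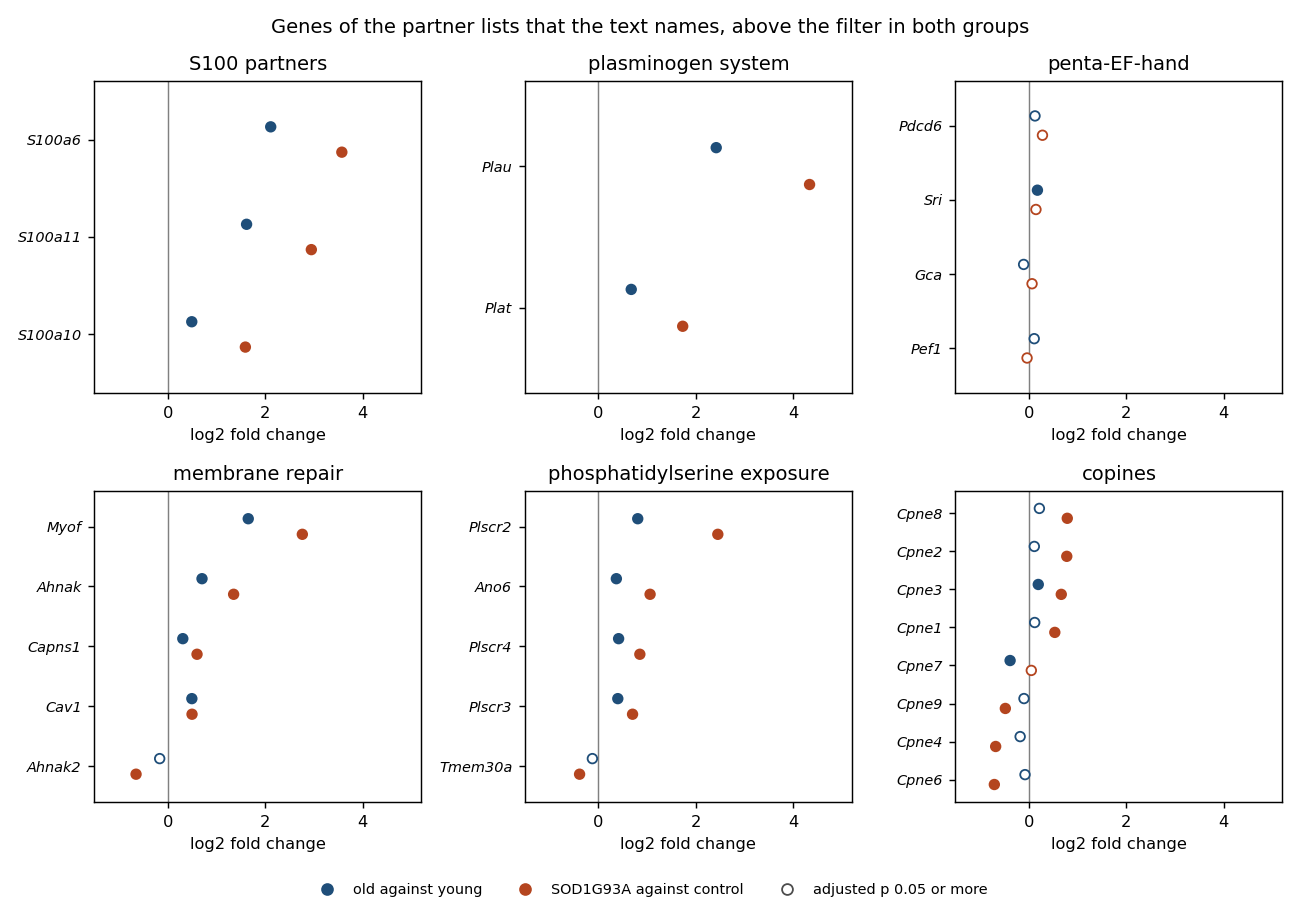
Log2 fold changes of those tested genes of 6 partner lists that the text names and that were above the filter on low counts in both groups, which are mostly called genes, for old against young (blue, 8 and 8 mice) and SOD1G93A against control (red, 3 and 3 mice), with open symbols for an edgeR adjusted p of 0.05 or more. S100 and plasminogen-system genes lie to the right in both, up to 4.33 for Plau, the penta-EF-hand genes lie near 0, and the copines lie on both sides in disease.

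The summed level of microglia markers was higher in every old and every SOD1G93A library than in the libraries compared with them. That of astrocyte markers was higher in this way in disease, while with age its ranges overlapped. The median change of oligodendrocyte markers was below 0. The summed level of 8 microglia markers ranged from 337 to 374 CPM in young and from 466 to 672 CPM in old mice, and from 356 to 418 CPM in control and from 1053 to 1625 CPM in SOD1G93A mice. Within this list 5 were higher with age and 4 in disease, Fcrls among them, where 13.5% and 18.4% of all genes were higher, while P2ry12, a marker of resting microglia, did not pass in either (log2 fold changes of 0.05 and 0.13, edgeR adjusted p = 0.814 and 0.363). The summed level of 6 astrocyte markers ranged from 4527 to 5205 CPM in young and from 4940 to 6283 CPM in old mice. In disease it ranged from 9769 to 16086 CPM, against 4052 to 4858 CPM in control. Of these 6, 3 were higher and 1 lower with age, and 5 were higher in disease. Of 6 oligodendrocyte markers, 1 was higher and 2 were lower with age (median log2 fold change -0.16), and none was called in disease (median -0.18). Of 6 neuron markers, 1 was higher with age, with summed levels of 4497 to 4935 CPM in young and 4141 to 5426 CPM in old mice. In disease 5 of the 6 were lower, with 2345 to 3800 CPM against 4934 to 5013 CPM in control. Beside the lower calls of these lists, 12.9% of all genes tested were lower with age and 15.5% in disease. Motor neuron markers in disease were at 91.4 to 105 CPM against 181 to 208 CPM. Ependymal markers had summed levels of 49.2 to 73.5 CPM in SOD1G93A against 33.6 to 39.4 CPM in control mice, with all 4 tested called higher, 1 of which reached the filter through the SOD1G93A mice alone. With age their sums overlapped, at 37.5 to 50.2 CPM in young and 47.0 to 57.0 CPM in old mice, and 1 was called higher. The part of these marker changes in the annexin changes was not tested.

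Markers of blood leukocytes were near the limit of detection. The summed level of 8 neutrophil and monocyte markers was at most 4.90 CPM in any library, with Ly6g at 0 in all, that of 5 T cell markers was at most 2.56 CPM and that of 6 border macrophage markers at most 7.63 CPM. Some of these low sums were nonetheless apart between groups. Of single genes tested, 3.66% had every old library above every young one. In disease 25.7% had every SOD1G93A library above every control, so such a gap is common with 3 mice a group. Border macrophage markers were at 4.93 to 7.63 CPM in SOD1G93A against 1.77 to 3.80 CPM in control mice. Those of neutrophils and monocytes were at 2.32 to 3.64 against 0.307 to 2.28 CPM, ranges that nearly met. T cell markers were at 0.729 to 2.56 CPM in old against 0.194 to 0.707 CPM in young mice, and at 1.10 to 1.34 CPM in SOD1G93A against 0.154 to 0.854 CPM in control mice. Their part in the annexin changes was not tested. Fibroblast markers were at 63.1 to 80.2 CPM in the aging libraries. In disease the groups overlapped, at 68.4 to 129 CPM in SOD1G93A against 59.8 to 71.6 CPM in control mice. Markers of Schwann cells were at 52.9 to 132 CPM in the aging libraries. In disease they were apart, at 77.2, 90.4 and 227 CPM in SOD1G93A against 58.5 to 68.2 CPM in control mice. Sensory neuron markers were low and also apart, at 2.22 to 4.57 CPM in SOD1G93A against 0.569 to 1.38 CPM in control mice. The part of these lists in the annexin changes was not tested either.

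The members did not vary together as 1 block among mice of the same group. Over the 16 aging libraries, with the mean of each age group removed, the 21 pairs of the 7 tested members had Pearson r from -0.24 to 0.79 with a median of 0.30. The most alike were Anxa2 and Anxa3 (r = 0.79, Spearman rho = 0.77), Anxa3 and Anxa6 (r = 0.69, rho = 0.72) and Anxa3 and Anxa4 (r = 0.62, rho = 0.21). Without the old library rich in mitochondrial counts these became 0.66, 0.72 and 0.19, so the likeness of Anxa3 and Anxa4 rested on that library. These are descriptions over libraries that share their batch and their scaling, and they carry no test.

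Outside the family, among 11823 genes with a mean of at least 5 CPM, the 3 genes most like each member were taken. For Anxa3 they were Tnfrsf12a (r = 0.92, rho = 0.77), Hexa (r = 0.91, rho = 0.86) and Glipr2 (r = 0.90, rho = 0.81). Without the 2 libraries farthest from the median of Anxa3, r was 0.79, 0.82 and 0.82. For Anxa2 they were Shf (r = 0.91), Vat1 (r = 0.85) and Borcs8 (r = 0.85), and for Anxa4 they were Poll, Nfkb1 and Gtpbp3 (r = 0.88, 0.88 and 0.86). For Anxa6 they were Actr1b, Macrod1 and Trappc2l (r = 0.92, 0.89 and 0.88). For Anxa5 they included Pcbp4 and Zfp664 (r = 0.88 and 0.84). Anxa7 and Anxa11 had looser neighbours, with Phc2, Bloc1s1 and Zkscan14 for Anxa7 (r = 0.74, 0.74 and 0.72) and Lonp1, Atp6v0d1 and Commd7 for Anxa11 (r = 0.78, 0.76 and 0.74). Without the 2 libraries farthest from the median of the member, r over the 21 pairs ran from 0.57 for Commd7 to 0.94 for Actr1b. It fell from 0.86 to 0.61 for Gtpbp3, from 0.88 to 0.68 for Poll and from 0.85 to 0.65 for Borcs8. Of these 21 genes, Vat1, Hexa and Glipr2 were called higher in both comparisons. Among all genes tested, 13.5% were called higher with age and 18.4% in disease, and the share higher in both was not counted. Of the other neighbours of Anxa2 and Anxa3, Shf and Borcs8 passed in neither comparison and Tnfrsf12a was higher in disease only.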

How the data were processed

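RNA-seq of whole spinal cord from 22 mice in 4 groups was used. Reads had been aligned with STAR and summarised per gene with RSEM on mm10, and SAMtools 1.3 is named in the submitters' processing notes. The authors deposited RSEM expected counts, not normalised between libraries, and a second table of log2 values, the log2 of FPKM plus 1. Expected counts were rounded to whole numbers. Columns name a group and a library but no replicate number, and all per-sample columns were used. Symbols were given by the supplied Ensembl table for 21842 of 21995 genes. No 2 libraries of a group agreed within sampling noise (chi-square over degrees of freedom at least 2.52).

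Genes were kept by filterByExpr (minimum count 10, minimum total 15), libraries were scaled by TMM, and each comparison was fitted alone with the quasi-likelihood test of edgeR 4.0.16 (R 4.3.3), with Benjamini-Hochberg adjustment over 13647 genes for aging and 14386 for ALS. The difference between the comparisons was fitted over 14502 genes. Rounded counts decide the precision of low genes. Each p-value sets a difference between groups against the estimated spread between mice within groups. In the test of the difference, both experiments share 1 estimate of that spread. On simulated data in which 200 genes were given a log2 difference of 1.5, 98% were recovered with the aging design over 13647 genes and 93% with the ALS design over 14386 genes, none in the wrong direction. Of the calls made there, 4.85% with the aging design and 7.92% with the ALS design fell on genes given no difference. Smaller differences, such as those of most members, were not simulated. Likeness used log2 CPM with a prior count of 2. Exact intervals were at the 95% level. Alternatives were DESeq2 1.42.0, RLE factors, 2 other filters, one fit of 22 libraries, limma 3.58.1 on the log2 table, CPM over exon length, and leaving out each library. Python 3.11.15 and matplotlib 3.10.9 were used.

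The members, the partner and marker lists and the tests were chosen with earlier results of these data known. Genes named were all members, the other annexins, all S100, penta-EF-hand and formyl peptide receptor partners, at most 4 genes of each other partner list with the smallest ALS adjusted p, and the 3 genes most like each member. Ahnak2, Tmem30a, Cpne3, Cpne4, Cpne7, Cpne9, Plg and the single markers named were chosen after their values were seen. Some genes of these lists are counted but not reported here by name.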

Additional observations from a re-analysis of the deposited data

Results flagged for a closer look

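The annexin changes in disease and with age differed by the test of the difference for 4 members. On the log2 scale the SOD1G93A change minus the aging change was 1.27 for Anxa3, 0.83 for Anxa2, 0.41 for Anxa5 and -0.51 for Anxa6. All 4 calls held without the old library rich in mitochondrial counts, an alternative added after the data were seen, with differences of 1.23, 0.83, 0.44 and -0.48.

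No member stood out in a single library by Dixon's test within the 8 young or the 8 old mice. Of 50 groups of values examined, members and summed markers together, 3 held a library far from the others, where chance gives about 1 in 20. All 3 were marker sums with 1 high old library. The Schwann cell markers reached 132 CPM in 1 old mouse, the erythroid markers 638 CPM in 1 old mouse, and the neutrophil and monocyte markers 4.90 CPM in 1 old mouse.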

How the results depend on the processing

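With age, 6 annexin genes were called under each alternative, leave-one-out included (6 to 6). In disease the 6 calls ranged from 5 to 7 with a library left out, and DESeq2 made 7. The seventh was Anxa1 each time, which with a library left out passed the filter through SOD1G93A mice alone. For the difference the 4 calls ranged from 3 to 6. The genes added at 6 calls were Anxa4 and Anxa1, and Anxa1 again passed the filter through SOD1G93A mice alone. No member's called direction reversed. Over all genes, limma on log2(FPKM + 1) called 964 lower with age against 1761, and in disease 2581 higher and 1297 lower against 2641 and 2236. With a library left out, calls ranged from 1632 to 2179 higher and from 1477 to 2200 lower with age, from 1638 to 3476 higher and from 715 to 3172 lower in disease, and from 1075 to 2211 higher and from 1306 to 2727 lower for the difference. The fewest calls in disease came without 1 of the 2 SOD1G93A mice with high glial markers, the most without the mouse with the lowest. The causes were not tested. No paired analysis was possible because the columns carry no replicate numbers. Depth limits Anxa1, the formyl peptide receptors and Plg, and 3 mice a group limit the disease comparison.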
